A study of Homo sapiens with 6 samples.

Results

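The ETS factors described here are 10 genes of the ETS family of transcription factors, ETV1, ETV4, ETV5, ETS1, ETS2, ETV6, ELK1, ELK3, ELF3 and EHF, taken by symbol from a table of 60612 genes. Each symbol matched 1 entry, and all 10 genes had enough counts to be tested. They were measured by RNA sequencing in HSC-3, a human cell line established from a squamous carcinoma of the mouth. One group of 3 libraries came from HSC-3 cells overexpressing IRF9, the DNA-binding subunit of the interferon-activated complex ISGF3. The other group of 3 libraries, titled with a romanised Chinese word and here called control, carries no genotype label, and the design text speaks of wild-type cells. The sources used here do not give the vector, promoter or selection, nor whether the controls carried an empty vector or the overexpressing cells were 1 clone. Because no label ties the replicates to separate cultures, p-values here weigh the gap between groups against a library spread that may be technical.

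ETS proteins share a DNA-binding domain that recognises a core of GGAA, and the family members differ in their partners and in the signals they receive. ETV1, ETV4 and ETV5 form the PEA3 subfamily, activators whose genes are commonly induced by receptor tyrosine kinase and ERK signalling. ETS1 and ETS2 are activated when ERK phosphorylates them. ELK1 and ELK3 are ternary complex factors, which bind DNA together with serum response factor and are also ERK substrates. ETV6 is a repressor of the family, and ELF3 and EHF are epithelium-specific factors linked to differentiation of lining tissues. The comparison asked how these groups of factors differed between the overexpressing and the control cells, and whether ERK-linked and epithelial members behaved alike.

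Total counts lay between 61645349 and 85156099 per library, and the mitochondrial share between 5.79% and 6.29%. IRF9 had 435, 423 and 120 CPM (counts relative to library size, scaled by the trimmed mean of M values) in the overexpressing libraries and 27.6, 25.1 and 44.6 CPM in the controls. In overexpressing replicate 3 the overlapping gene AL136295.5 held 421 CPM, and the sum of IRF9, AL136295.5 and RNF31 was 551, 543 and 543 CPM against 127, 121 and 123 CPM. The 8 markers of squamous epithelium were all detected. Their summed level was 12800 to 13500 CPM in the overexpressing and 21400 to 22100 CPM in the control libraries. At an adjusted p under 0.05, 7 of the 8 were lower, while 18.2% of all 19034 genes tested were lower and 19.2% higher. Of 7 fibroblast markers 1 rose and 1 fell (summed 47.4 to 51.7 against 75.7 to 80.5 CPM, with POSTN at 0), of 5 endothelial markers 1 rose (1.68 to 3.1 against 1.1 to 1.71 CPM, with KDR at 0), and of 7 leukocyte markers 1 rose and 1 fell (77.2 to 84.6 against 83 to 85.3 CPM, with SPI1 at 0). The part of these markers in the results below was not tested, and in bulk RNA fewer cells of a type and less RNA per cell cannot be told apart.

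The PEA3 factors rose in the IRF9-overexpressing cells, by 3.26-fold for ETV1, 3.78-fold for ETV4 and 5.23-fold for ETV5, whereas the epithelial factors ELF3 and EHF did not pass the test. ETS1 and ELK3 rose by 1.33-fold each, and ETS2 fell to 0.877 of its control level. ETV6 and ELK1 did not pass. In all, 5 of the 10 factors rose, 1 fell and 4 did not pass; their median log2 fold change was 0.25. Among all 19034 genes tested, 37.4% passed, 19.2% higher and 18.2% lower, with a median of 0.00. Increases of at least 2-fold were found for 3 of the 10, against 3.51% of all genes, and 5.73% of all genes changed that much in either direction. The library ranges of the groups did not overlap for 6 of the 10, 5 higher and 1 lower, against 48.6% of all genes tested, 25% higher and 23.7% lower. The test was edgeR's quasi-likelihood test with Benjamini-Hochberg adjustment over all genes tested, and a gene passed at an adjusted p under 0.05.

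**Figure D1:**
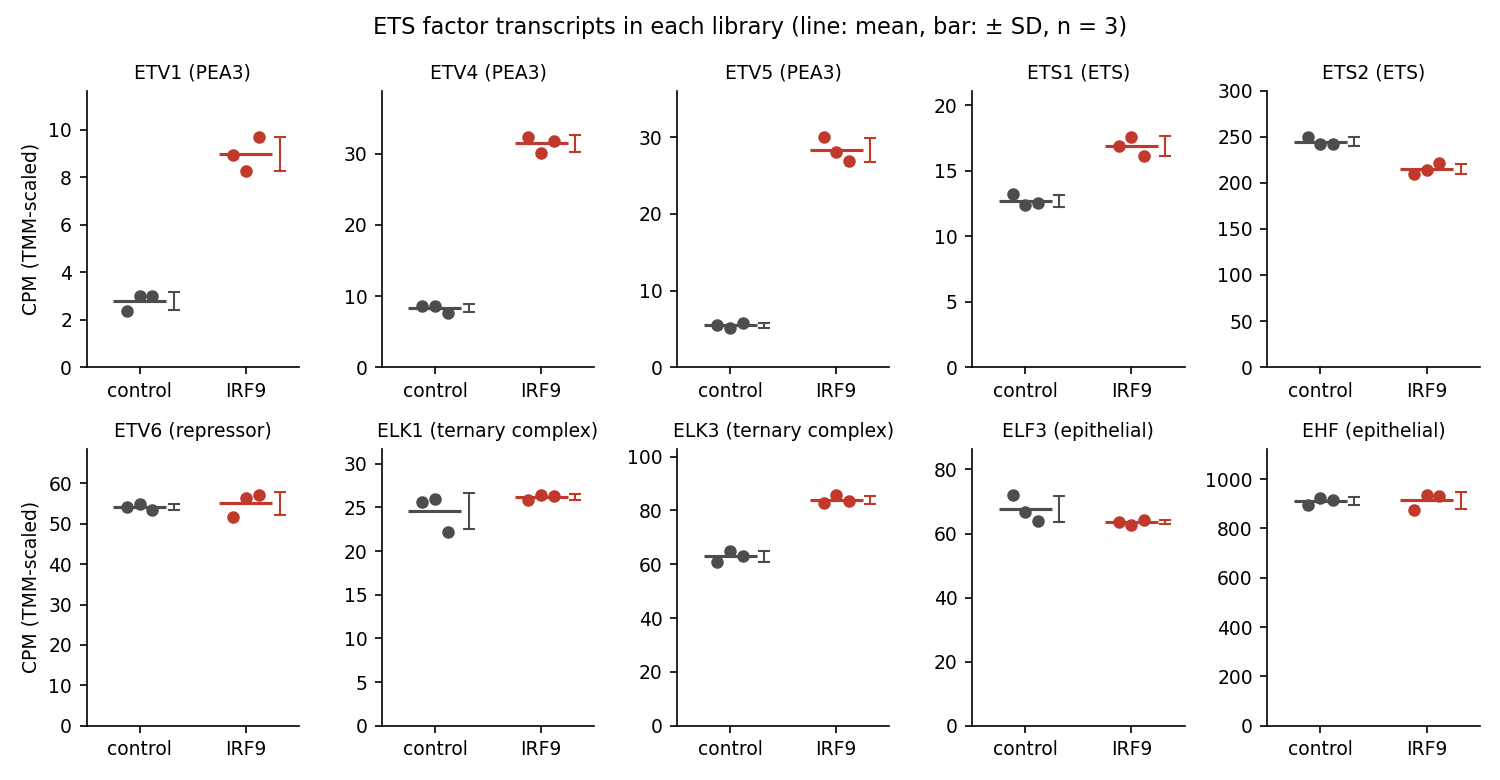
Level of each ETS factor in CPM (vertical axes from 0) in the 3 control and 3 IRF9-overexpressing libraries; points are libraries, lines are means and bars are ± SD. The overexpressing libraries lie above every control for ETV1, ETV4, ETV5, ETS1 and ELK3 and below every control for ETS2, while the groups overlap for ETV6, ELK1, ELF3 and EHF.

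ETV5 (ENSG00000244405, chromosome 3, 186046314 to 186110318, minus strand) had the highest fold change of the 10. It stood at 30.1, 28.1 and 26.9 CPM in the overexpressing libraries and 5.44, 5.17 and 5.72 CPM in the controls. Every overexpressing library was far above every control, and the spread within either group was small beside the gap. The means were 28.4 ± 1.65 against 5.44 ± 0.278 CPM (SD, n = 3 per group), and the log2 fold change was 2.39 (SE 0.088, adjusted p 1.41e-09, edgeR quasi-likelihood). Ranked by log2 fold change, it was number 99 from the top among the 19034 genes. DGKG, a diacylglycerol kinase gene that overlaps the 5′ part of ETV5 on the same strand, had 7.93, 8.08 and 8.27 CPM against 7.32, 7.24 and 6.65 CPM and did not pass (adjusted p 0.167). With all overlapping genes added, the ETV5 locus still stood at 35.1 to 38.1 against 12.4 to 12.8 CPM.

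ETV4 (ENSG00000175832, chromosome 17, 43527844 to 43579620, minus strand) had 32.4, 30.1 and 31.8 CPM in the overexpressing libraries and 8.6, 8.64 and 7.67 CPM in the controls. The groups were widely separated. Its means of 31.4 ± 1.21 and 8.31 ± 0.547 CPM (SD, n = 3 per group) gave a log2 fold change of 1.92 (SE 0.077, adjusted p 2.61e-09, edgeR quasi-likelihood). ETV4 lies wholly inside DHX8, an RNA helicase gene on the opposite strand, and the sources used here do not say whether strand was used in counting. DHX8 had 72.9, 80.1 and 83.9 CPM against 83.1, 87.6 and 92.5 CPM and did not pass (adjusted p 0.0608). The sum of both genes was 105, 110 and 116 CPM in the overexpressing libraries and 91.7, 96.3 and 100 CPM in the controls, still higher (log2 fold change 0.20, adjusted p 0.00624, edgeR quasi-likelihood). The sum is mostly DHX8, so the size of the ETV4 change rests on how reads were assigned between the genes.

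ETV1 (ENSG00000006468, chromosome 7, 13891229 to 13991425, minus strand) was the scarcest of the 10 factors. It had 8.96, 8.28 and 9.72 CPM in the overexpressing libraries against 2.35, 2.98 and 3.01 CPM in the controls, and the lowest overexpressing library exceeded the highest control. The log2 fold change was 1.70 (SE 0.14, adjusted p 1.78e-06, edgeR quasi-likelihood). No annotated gene overlaps ETV1. The 95% intervals of the log2 fold changes were 1.40 to 2.01 for ETV1, 1.75 to 2.08 for ETV4 and 2.19 to 2.58 for ETV5, but differences in fold between the factors were not tested.

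**Figure D2:**
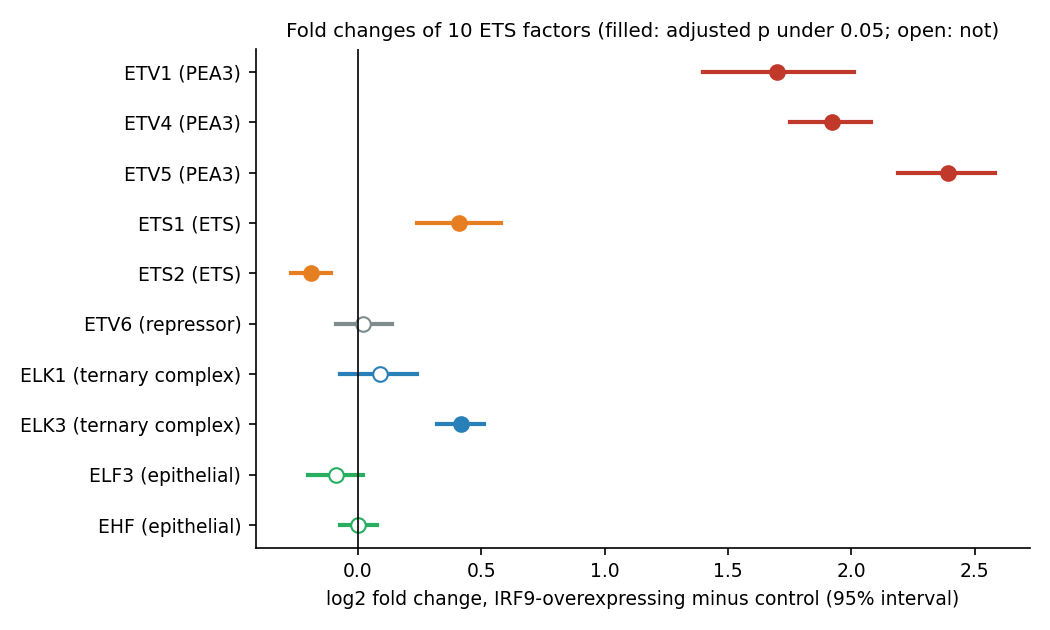
Log2 fold change of each ETS factor, overexpressing minus control, with its 95% interval from the quasi-likelihood test; filled circles passed at an adjusted p under 0.05. The PEA3 factors stand at 1.70 to 2.39, ETS1 and ELK3 near 0.4, and the intervals of ETV6, ELK1, ELF3 and EHF include 0.

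Capicua (CIC), a repressor that is inactivated through ERK signalling, is known to hold down the PEA3 genes through octamers such as TGAATGGA. RefSeq promoter windows on GRCh38.p14, each reaching from 250 bases before to 50 bases after a transcript start, were matched for 7 of the 10 factors, in 15 windows; those for ETV4, ETV5 and ETS1 were not matched. Both strands were searched for GGAA, for the CIC octamers TGAATGGA, TGAATGAA, TCAATGGA and TCAATGAA, for the AP-1 motif TGANTCA, for the core that ISGF3 binds in interferon-responsive promoters (GAAA, any 2 bases, GAAA), and for the CArG box of serum response factor. The only match other than GGAA was TGAATGGA in the most upstream ETV1 window, on the ETV1 strand at position -125, counted with 1 as the first base of the transcript. It overlaps no other motif searched. That octamer stands in 1.03% of all 35116 windows of 300 bases, and any of the 4 CIC octamers in 3.77%. TGANTCA stands in 7.71% of them, the ISGF3 core in 3.57% and the CArG box in 1.29%. GGAA stands in 95.5%, at a median of 3 matches, and the factors' windows held between 0 and 8. A missing match says only that these letters are not in these windows. The ETV1 window with the octamer (chr7:13991376-13991675, minus strand) is shown beside the only ELF3 window (chr1:202010337-202010636, plus strand) and the first of the 2 EHF windows (chr11:34624007-34624306, plus strand), the epithelial factors with which the PEA3 genes are contrasted. The other EHF window held 0 GGAA matches and is not shown. All are written 5′ to 3′, with capitals for GGAA on either strand and for the octamer.
ETV1: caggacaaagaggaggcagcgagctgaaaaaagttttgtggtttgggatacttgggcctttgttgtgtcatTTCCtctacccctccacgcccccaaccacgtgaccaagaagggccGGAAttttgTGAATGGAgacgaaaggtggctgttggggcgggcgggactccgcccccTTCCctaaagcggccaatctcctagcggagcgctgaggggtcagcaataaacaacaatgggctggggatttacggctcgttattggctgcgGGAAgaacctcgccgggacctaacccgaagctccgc
ELF3: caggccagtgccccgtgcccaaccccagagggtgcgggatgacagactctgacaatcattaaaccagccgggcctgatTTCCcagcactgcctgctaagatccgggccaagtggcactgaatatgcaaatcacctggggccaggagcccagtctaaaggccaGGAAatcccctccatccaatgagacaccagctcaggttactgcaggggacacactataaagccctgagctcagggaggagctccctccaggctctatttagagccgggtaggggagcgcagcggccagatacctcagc
EHF: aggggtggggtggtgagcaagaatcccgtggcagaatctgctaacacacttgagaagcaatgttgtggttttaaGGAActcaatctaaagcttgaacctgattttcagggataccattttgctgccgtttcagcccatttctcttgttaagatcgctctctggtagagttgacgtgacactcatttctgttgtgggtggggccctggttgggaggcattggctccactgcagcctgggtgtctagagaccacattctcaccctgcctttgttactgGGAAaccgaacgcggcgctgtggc

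CIC transcripts themselves stood at 77.7, 84.6 and 89.8 CPM in the overexpressing libraries and 107, 109 and 110 CPM in the controls. All overexpressing libraries were below all controls, a log2 fold change of -0.37 (SE 0.053, adjusted p 0.000156, edgeR quasi-likelihood). In the list of 12 genes that control PEA3 and ETS proteins, 1 rose and 6 fell, with a median log2 fold change of -0.12. Among all genes tested, 19.2% were higher and 18.2% lower. Scaled by library size only, 1 of the 12 rose and 3 fell. The one that rose was TRIB1, a pseudokinase that brings targets to the ubiquitin ligase COP1, which degrades PEA3 proteins. TRIB1 had 18.5, 18.8 and 18.9 CPM against 8.36, 7.42 and 8.01 CPM (log2 fold change 1.24, adjusted p 2.66e-07), with the groups far apart. Its relative TRIB2 fell by 0.36 on the log2 scale (adjusted p 5.66e-05), and SPOP, a ubiquitin ligase adaptor, by 0.24 (adjusted p 0.00382). COP1 had 45.6 ± 1.56 against 44.9 ± 2.49 CPM (SD, n = 3 per group) and did not pass (adjusted p 0.843).

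ETS1 and ETS2, close paralogues, went in opposite directions. ETS1 (ENSG00000134954, chromosome 11, 128458761 to 128587558, minus strand) had 16.9, 17.6 and 16.1 CPM in the overexpressing libraries and 13.2, 12.4 and 12.5 CPM in the controls. The groups did not overlap, and the log2 fold change was 0.41 (SE 0.078, adjusted p 0.00136, edgeR quasi-likelihood). ETS2 (ENSG00000157557, chromosome 21, 38805183 to 38824955, plus strand) had 210, 214 and 221 CPM against 250, 242 and 242 CPM. It was lower in all 3 overexpressing libraries, with a log2 fold change of -0.19 (SE 0.036, adjusted p 0.00143). Among the other 108 chromosome 21 genes of 5 CPM or more, 15 were higher and 55 lower, and their median log2 fold change was also -0.19, and the part of the chromosome in the ETS2 value was not tested. Per length, in FPKM, which divides fragments by gene length and library size, ETS2 exceeded ETS1 by 13.2 to 15.4 times in the overexpressing and 19.9 to 23.4 times in the control libraries.

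Of the ternary complex factors, ELK3 rose and ELK1 did not pass. ELK3 (ENSG00000111145, chromosome 12, 96194375 to 96269824, plus strand), which represses targets until ERK phosphorylates it, had 82.7, 85.7 and 83.5 CPM against 60.8, 64.9 and 63.2 CPM. No overexpressing library came near a control (log2 fold change 0.42, SE 0.045, adjusted p 1.77e-05, edgeR quasi-likelihood). ELK1 (ENSG00000126767, chromosome X, 47635521 to 47650604, minus strand) had 25.8, 26.4 and 26.3 CPM against 25.6, 25.9 and 22.2 CPM. Its groups overlapped through control replicate 2, with control replicate 3 the lowest library, and the 95% interval of its log2 fold change was -0.07 to 0.24 (adjusted p 0.366). The FPKM ratio of ELK3 to ELK1 was 2.13 to 2.21 in the overexpressing and 1.63 to 1.95 in the control libraries.

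Among 12 cofactors of ternary complex and ETS factors, 3 rose and 7 fell, with a median log2 fold change of -0.31. Of all genes tested, 19.2% were higher and 18.2% lower. SRF, the serum response factor with which ELK1 and ELK3 bind, had 76.3, 77.3 and 80.1 CPM against 58.1, 61.8 and 59.2 CPM, separated groups with a log2 fold change of 0.38 (adjusted p 4.19e-05, edgeR quasi-likelihood). ID3, an inhibitor of helix-loop-helix factors that can also bind ternary complex factors, fell by 0.66 on the log2 scale (adjusted p 7.88e-06). The acetyltransferase CREBBP, a coactivator, fell by 0.46 (adjusted p 0.000202), and MRTFA, an actin-regulated partner of SRF, by 0.26 (adjusted p 0.00122).

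ETV6 (ENSG00000139083, chromosome 12, 11649674 to 11895377, plus strand) had 51.8, 56.4 and 57.1 CPM in the overexpressing libraries and 54.1, 55 and 53.4 CPM in the controls. The controls lay within the range of the overexpressing libraries, and the log2 fold change of 0.02 had a 95% interval of -0.09 to 0.14 (adjusted p 0.764, edgeR quasi-likelihood).

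The epithelial factors stayed close to their control levels. EHF (ENSG00000135373, chromosome 11, 34621093 to 34663288, plus strand) had 875, 935 and 930 CPM in the overexpressing libraries and 893, 923 and 917 CPM in the controls. The controls lay within the overexpressing range. Its log2 fold change of 0.00 had a 95% interval of -0.07 to 0.08 (adjusted p 0.939, edgeR quasi-likelihood), so a change of the size seen for ETS2 or ETS1 lay outside that interval. ELF3 (ENSG00000163435, chromosome 1, 202007945 to 202017183, plus strand) had 63.7, 62.8 and 64.3 CPM against 72, 66.8 and 63.9 CPM. Control replicate 3 fell within the overexpressing range, and the log2 fold change of -0.09 had a 95% interval of -0.20 to 0.02 (adjusted p 0.201).

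ELF3-AS1, a long noncoding RNA gene that overlaps the first part of ELF3 on the opposite strand, was itself lower, with 3.42, 3.75 and 2.84 CPM against 5.85, 6.6 and 5.52 CPM (log2 fold change -0.86, adjusted p 0.000678, edgeR quasi-likelihood). With the counts of ELF3-AS1 and AL691482.3 added, the ELF3 locus stood at 67.7, 66.9 and 67.5 CPM against 79, 73.6 and 70 CPM and just passed as lower (log2 fold change -0.14, adjusted p 0.0465). That sum includes ELF3-AS1, which was itself lower, so it is not a call for ELF3 alone. How reads at this locus were shared between the genes was not tested.

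The contrast between the ERK-linked and the epithelial members was described library by library, without a test. The mean log2 CPM of ETV1, ETV4, ETV5, ETS1 and ETS2 was 4.98, 4.93 and 4.96 in the overexpressing libraries, against 3.70, 3.73 and 3.73 in the controls. That of ELF3 and EHF was 7.88, 7.92 and 7.93 against 7.99, 7.96 and 7.92. The ERK-linked mean therefore stood 2.91, 2.99 and 2.97 below the epithelial mean in the overexpressing libraries, written here as differences of -2.91, -2.99 and -2.97, and the control differences were -4.29, -4.23 and -4.19. The gap narrowed by 1.28 on the log2 scale, while the pooled SD between libraries was 0.045. With ETV1, ETV4 and ETV5 alone the narrowing was 2.04. Without overexpressing replicate 3, the library with fewer counts assigned to IRF9, it was 1.29 for the 5 ERK-linked members, and the log2 fold changes were 1.64 for ETV1, 1.91 for ETV4, 2.42 for ETV5, 0.44 for ETS1, -0.21 for ETS2 and 0.42 for ELK3. All 6 still passed, and ETV6, ELK1, ELF3 and EHF still did not.

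**Figure D3:**
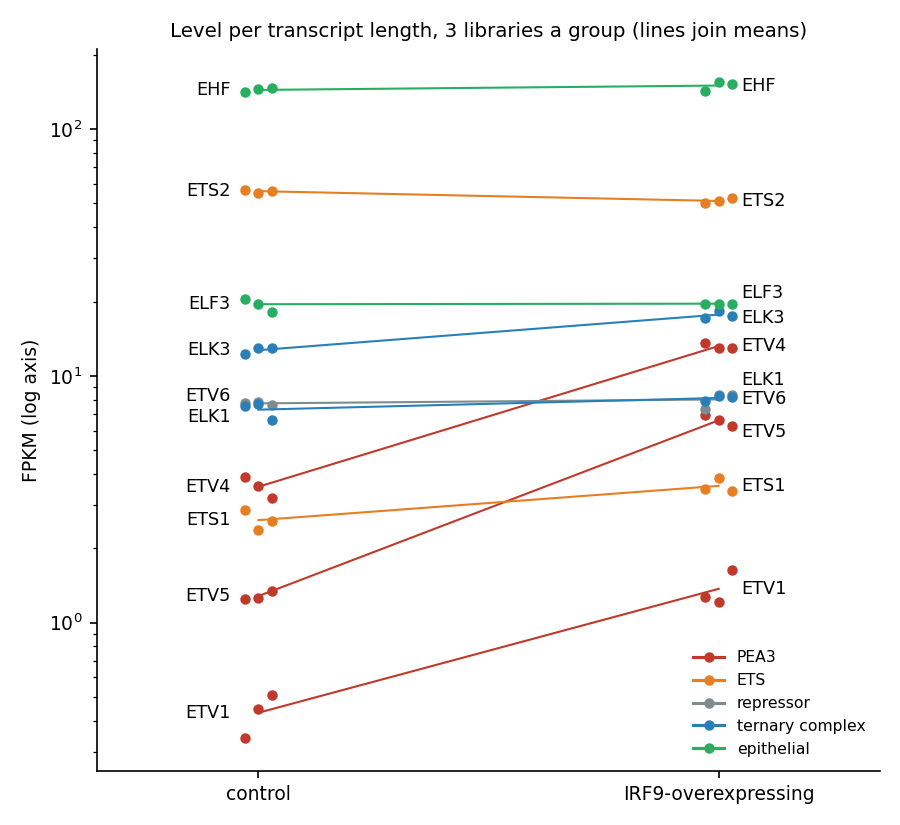
FPKM of the 10 ETS factors on a log axis, 3 libraries a group, with lines joining the group means. ETV4 moves from below ELK1 and ETV6 to above both, ETV5 from below ETS1 to above it, and EHF, ETS2 and ELF3 keep the highest places.

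Per length, the order of the factors in the control cells was EHF, ETS2, ELF3, ELK3, ETV6, ELK1, ETV4, ETS1, ETV5 and ETV1. Their mean levels were 144 ± 2.71 FPKM for EHF, 56 ± 0.73 for ETS2, 19.5 ± 1.15 for ELF3, 3.55 ± 0.351 for ETV4, 1.28 ± 0.0532 for ETV5 and 0.431 ± 0.0839 for ETV1 (SD, n = 3). The ranges of neighbours in this order overlapped only for ETV6 and ELK1. In the overexpressing cells ETV4 took place 5, at 13.2 ± 0.383 FPKM, and ETV5 place 8, at 6.6 ± 0.331 FPKM, with ELK1 and ETV6 again the only neighbours that overlapped. EHF led in both groups, at 150 ± 6.59 FPKM in the overexpressing cells.

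Summed over 28 ETS genes, the family's level was 351.2, 365.6 and 361.9 FPKM in the overexpressing libraries and 343.4, 344 and 348.3 FPKM in the controls. The PEA3 factors made up 6.20%, 5.70% and 5.74% of this sum against 1.60%, 1.53% and 1.45%. EHF alone held 40.45% to 42.29% against 41.06% to 42.17%. Thus the PEA3 share was higher in every overexpressing library, and the ranges for EHF overlapped. The ratio of summed PEA3 FPKM to ELF3 FPKM was 1.11, 1.06 and 1.06 in the overexpressing libraries, against 0.267, 0.268 and 0.276 in the controls. Within the subfamily, the ratio of ETV4 to ETV5 was 1.96, 1.97 and 2.05 against 3.12, 2.84 and 2.37, lower in each overexpressing library. ETV4 and ETV5 overlap other expressed genes, so the PEA3 share and these ratios depend on how reads were assigned at those loci.

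**Figure D4:**
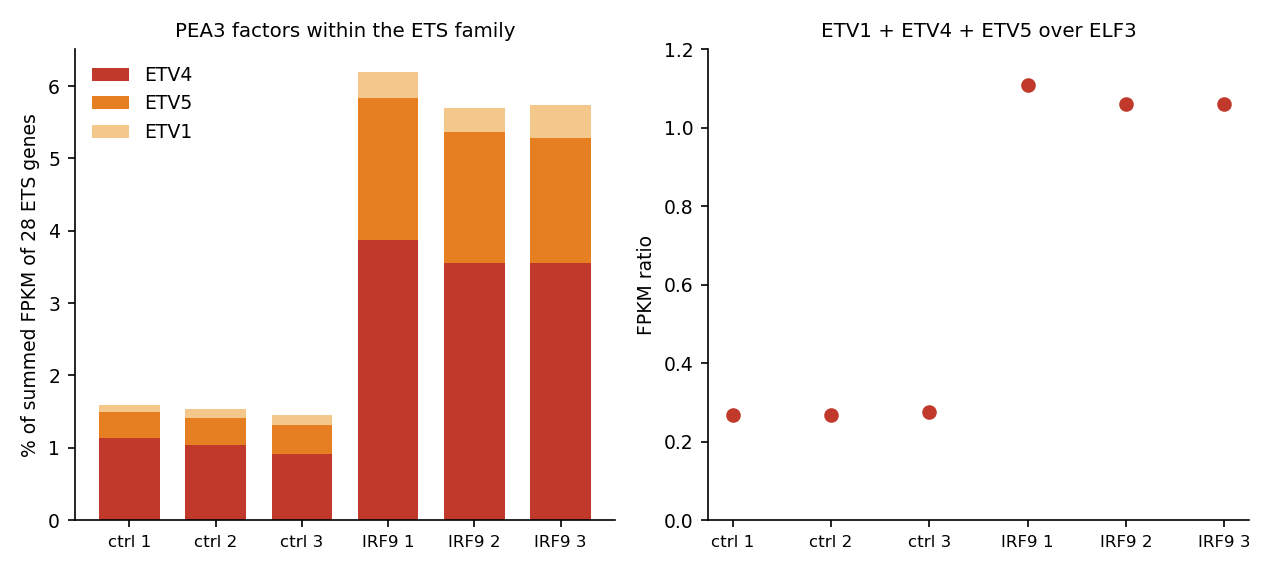
Left, share of the summed FPKM of 28 ETS genes held by ETV4, ETV5 and ETV1 in each library (stacked bars from 0, in %); right, FPKM ratio of the 3 factors together to ELF3. The overexpressing libraries reach 5.70% to 6.20% and ratios of 1.06 to 1.11, the controls 1.45% to 1.60% and 0.267 to 0.276.

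Of the other 18 ETS family genes, 12 had enough counts to be tested, and 0 rose and 3 fell, with a median log2 fold change of -0.13. Among all genes tested 37.4% were called and 18.2% were lower, so this count does not set the other ETS genes apart. ELF1, an activator of the ELF branch, had 85.8, 88.9 and 84.5 CPM against 120, 112 and 121 CPM, clearly separated (log2 fold change -0.44, adjusted p 9.59e-06, edgeR quasi-likelihood). ERF, a repressor that ERK drives out of the nucleus, fell by 0.21 on the log2 scale (adjusted p 0.00715). GABPA, an activator of housekeeping and mitochondrial genes that lies on chromosome 21 like ETS2, fell by 0.20 (adjusted p 0.0204). ETV3L, SPI1 and SPIC had a count of 0 in every library.

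Transcripts that ERK signalling is known to induce rose in 13 of 14 cases with 0 lower. Among all genes tested, 19.2% were higher and 18.2% lower. The median log2 fold change of the 14 was 0.96. This list was chosen with the rise of several of its genes already known. DUSP6, an ERK phosphatase, had 104, 98.7 and 104 CPM in the overexpressing libraries against 27.5, 26.5 and 25.7 CPM. The separation was complete, with a log2 fold change of 1.94 (adjusted p 8.02e-11, edgeR quasi-likelihood), close in size to that of ETV4. The AP-1 subunit gene FOSL1 had a log2 fold change of 2.05, the immediate early gene EGR1 of 3.07, and PHLDA1 of 1.04 (adjusted p 6.35e-11, 1.57e-12 and 6.54e-10). EPHA4, named after its value was seen as the member that did not pass, had 1.2 ± 0.409 against 1.76 ± 0.369 CPM (SD, n = 3 per group).

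Of 15 genes of the ERK cascade itself, 0 rose and 5 fell, and the median of their log2 fold changes was -0.14. That number of calls is near the 37.4% called among all genes tested, of which 18.2% were lower, and is no result about the cascade. SOS2 and SOS1, exchange factors that load RAS with GTP, fell by 0.42 and 0.19 on the log2 scale, and HRAS by 0.32 (adjusted p 0.000164, 0.0179 and 0.002, edgeR quasi-likelihood). The adaptor GRB2, named after its value was seen, fell by 0.13 (adjusted p 0.0204). With scaling by library size only, SOS2 and HRAS remained lower and MAPK3 was higher by 0.16. Without control replicate 3, 3 genes fell. Kinase activity and phosphorylation were not measured.

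**Figure D5:**
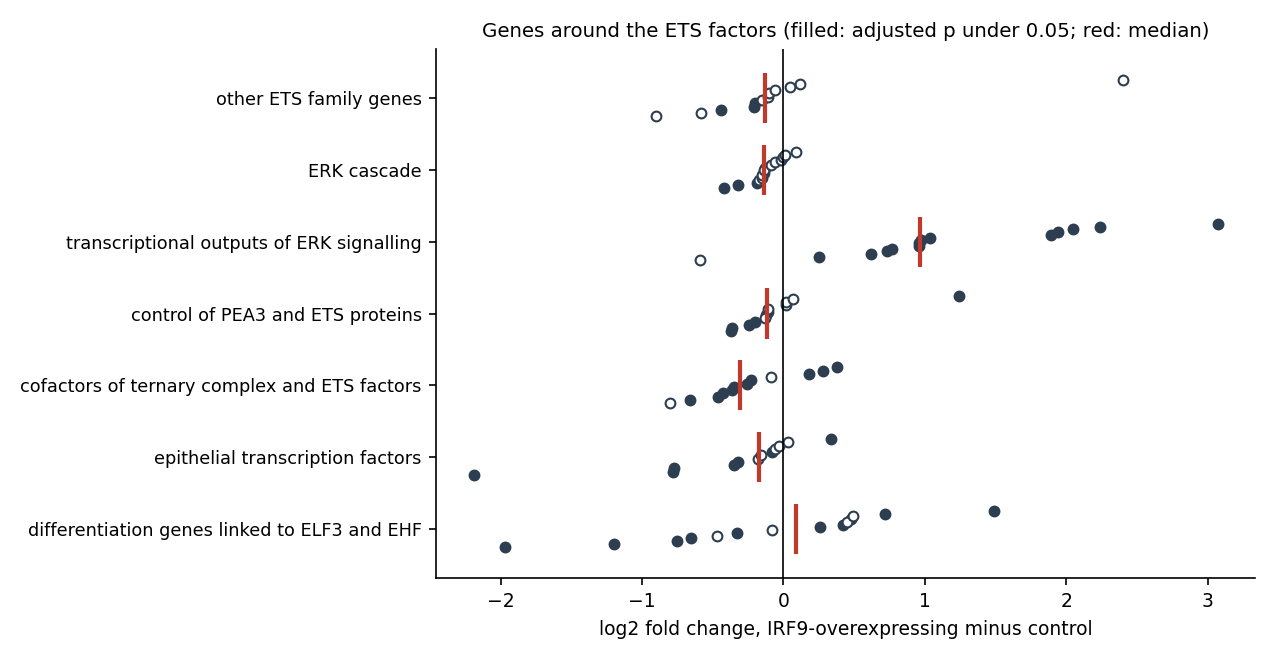
Log2 fold change, overexpressing minus control, of each tested gene in 7 lists around the ETS factors; filled points passed at an adjusted p under 0.05 and red bars are list medians. The ERK output genes lie mostly right of 0 with a median of 0.96, while the medians of the other 6 lists lie between -0.31 and 0.09.

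Epithelial transcription factors other than ELF3 and EHF were lower in 6 cases out of 12 and higher in 1. Among all genes tested, 18.2% were lower and 19.2% higher. The median log2 fold change of the 12 factors was -0.17. MAF, a factor of late epidermal differentiation, had 2.92, 2.07 and 2.43 CPM against 11.5, 11.8 and 10.9 CPM, a log2 fold change of -2.19 (adjusted p 1.12e-07, edgeR quasi-likelihood). The grainyhead factors GRHL1 and GRHL2 fell by 0.77 and 0.32 on the log2 scale, and KLF5 by 0.35 (adjusted p 2.72e-07, 8.09e-05 and 5.04e-06). KLF4, a factor of barrier formation, was the one that rose, with a log2 fold change of 0.34 (adjusted p 0.00066). TP63, the master factor of squamous cells, had 890 ± 42.2 against 928 ± 24 CPM (SD, n = 3 per group) and did not pass (adjusted p 0.25).

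Differentiation and inflammation genes linked to ELF3 and EHF went both ways. Of 16, 14 were tested, 5 rose and 5 fell, with a median log2 fold change of 0.09. Of all genes tested, 19.2% rose and 18.2% fell. LCN2, an iron-sequestering antimicrobial protein, had 262, 243 and 247 CPM against 93.7, 86 and 88 CPM, far apart (log2 fold change 1.49, adjusted p 2.53e-10, edgeR quasi-likelihood). KRT18, a keratin of simple epithelia, rose by 0.72 and PTGS2, the inducible cyclooxygenase, by 0.48 (adjusted p 4.24e-08 and 0.000138). TGM1, the transglutaminase that crosslinks the cornified envelope, fell by 0.65 (adjusted p 0.000143).

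The genes whose log2 CPM profile was most like that of a member were sought among 10805 protein-coding genes of at least 5 CPM, by the root mean square difference of centred values over the 6 libraries. For ETV4 they were DUSP6 (0.040), IL1A (0.081) and FOSL1 (0.10), and for ETV5 NGFR (0.13), FOSB (0.14) and SLC29A4 (0.14). For ELF3 they were SLC23A2 (0.017) and CHTOP (0.019), and for EHF TNFAIP3 (0.0061), CD44 (0.011) and JAG1 (0.012). With 2 groups of 3 libraries, these values reflect mainly the size of the difference between groups and are given as a description.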

How the data were processed

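The deposited files are a matrix of raw counts and a table of expression values with gene symbols and coordinates. That table's header gives no unit, and the deposited values were read as FPKM. Per the submitters' processing notes, the tools included HISAT2, StringTie, edgeR, Trimmomatic, FastQC and CASAVA 1.8, with build GRCh38 and no roles stated. The sources used here give neither annotation release nor strand use.

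All 6 libraries entered 1 quasi-likelihood fit on group (R 4.3.3, edgeR 4.0.16) after filterByExpr (minimum count 10, minimum total 15) and TMM scaling. On simulated data this procedure recovered 36%, 58%, 66% and 82% of genes changed by 1.25, 1.5, 2 and 4-fold. Each fold had 50 genes, and 12 of the 18473 genes tested were false calls. Smaller folds were not simulated, so a gene that did not pass may still differ. The common biological coefficient of variation was 0.135. Benjamini-Hochberg adjustment covered 19034 genes. CPM values are TMM-scaled, log2 CPM used a prior count of 2, and SE was derived from the test statistic. Chi-square per degree of freedom between libraries of a group was 9.86 to 28.1, and all were kept as separate replicates. Genes were named by rule: all members, IRF9, up to 4 passing genes of smallest p per list, the leading gene of opposite direction, and 3 most alike genes for ETV4, ETV5, ELF3 and EHF. COP1, TP63, MAPK3, EPHA4 and GRB2 were among the genes named outside the rule. Some genes that the rule names are not reported here. Members and lists were chosen with earlier results of these data known. Alternatives included DESeq2 1.42.0 and limma 3.58.1. Leaving out each library, other scalings, filters, FPKM with pseudocounts of 1 and 0.1, and the replicate block were also run.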

Additional observations from a re-analysis of the deposited data

How the results depend on the processing

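Of 515 recomputed values, 469 kept direction and call or stayed within 1.5 times or 1 SD of the reported value. Summing overlapping genes altered only the members' counts and added none to ETV1 or ETS1. That alternative could therefore hardly move the values of those 2 genes or the list counts. The quasi-likelihood test in its older form was added after the data were seen and gave 6815 changed genes. ETV1, ETV4, ETV5, ETS1, ETS2 and ELK3 kept direction and call in all 16 alternatives each, but sizes moved: ETV1 was lowest at 0.72 and ETV5 at 1.73 on log2(FPKM + 1), where the pseudocount shrinks low genes, and ETV5 at 1.54 and ETV4 at 0.20 when overlapping genes were summed.

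The sum of ELF3 and its overlapping genes passed as lower (-0.14), counted as 2 lower members, and ELF3 had 0.01 on both FPKM scales. EHF, at 0.00, changed sign with DESeq2 (0.00) and its size factors (0.00), and ranged from -0.01 to 0.03 when single libraries were left out, as ETV6 did from -0.01 to 0.07. None of these sign changes passed the test, and the cause was not tested. Without single libraries, between 5784 and 6912 genes changed (2981 to 3539 rose, 2803 to 3373 fell), with 6 changed members each time, 2 to 4 other ETS genes and 3 to 6 lower genes of the ERK cascade, 3 of them without control replicate 3.

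With a 2-fold minimum, fewer by construction, 1090 genes changed, 669 higher and 421 lower. There, 3 members were higher and 0 lower, 0 other ETS genes changed, and the lists held 6 higher ERK outputs, 0 lower ERK cascade genes, 0 lower control genes, 0 higher and 0 lower cofactors, 0 higher and 1 lower epithelial factors, and 1 higher and 2 lower differentiation genes. At an adjusted p under 0.01, 3 ERK cascade and 3 control genes were lower. Both FPKM fits, which used no TMM, gave 1 other ETS gene, 1 higher and 2 lower ERK cascade genes and 3 lower control genes; library size scaling gave the same 3 list counts. FPKM with pseudocounts of 1 and 0.1 gave 2090 and 2074 lower genes. Of the changed genes 51.2% were higher with TMM and 64.5% with library size only, a scaling that shifted the median gene by 0.07 (log2). The narrowing of the gap between ERK-linked and epithelial members, 1.28, was 1.08 with ETV6 added, 2.04 without ETS1 and ETS2, 0.83 on log2(FPKM + 1) and 1.15 on log2(FPKM + 0.1), and 1.26 to 1.30 without single libraries. The replicate number did not pair libraries: same-numbered deviations correlated at 0.012, -0.049 and -0.116 over 11369 genes, and not every library correlated best with its own number. A replicate block gave 7458 changed genes and 6 changed members.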
